A study of Mus musculus with 13 samples.

Results

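The 10 genes described here are p53 itself (Trp53), the p53 inhibitors Mdm2 and Mdm4, and the p53 target genes Cdkn1a, Ccng1, Bax, Bbc3, Sesn2, Zmat3 and Gdf15. They were chosen by symbol, for their known place in the p53 pathway, from the 55487 genes counted in mouse embryonic fibroblasts (MEFs), either primary or spontaneously immortalized. All 10 were found once in both tables and all 10 passed the filter on low counts. The comparison asks which immortalized lines keep the expression of p53 target genes seen in the primary cells.

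The series holds 13 poly-A RNA-seq libraries. Of the WT genotype there are 3 primary MEF cultures (clones 3, 4 and 5) and the 3 immortalized MEF lines with the same clone numbers. Of the genotype Prkd3-/- there are 3 primary cultures (clones 13, 14 and 15) and 4 immortalized lines (13, 13a, 14 and 15), of which 13 and 13a carry the same clone number. All cells were grown in high-glucose DMEM with fetal calf serum, and the lines arose as colonies during prolonged culture after senescence. No oncogene or viral protein was added to immortalize the cells. Prkd3 encodes protein kinase D3. Each line is a single library, so values of single lines have no replicate, and p-values for a group rest on the spread among 3 or 4 cultures. Lines 13 and 13a may not be independent of each other. The fits pool the spread of primary and immortalized libraries, although these spread differently.

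p53 is a transcription factor that is kept at a low level by Mdm2, a ubiquitin ligase that marks p53 for degradation, and by Mdm4, which binds and blocks its transactivation domain. Stress stabilizes the p53 protein, and the genes it then switches on arrest the cell cycle, repair damage or start apoptosis. Mdm2 is itself such a target gene, which closes a negative feedback loop. In cultured MEFs the p19Arf product of the Cdkn2a locus, which holds Mdm2 away from p53, is known to drive senescence together with p53. The level of Trp53 mRNA is not a measure of p53 protein or of its activity, and neither was measured here.

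Levels are given as CPM, in which TMM factors put the libraries on one scale. The WT libraries held between 55436367 and 90654323 counts and the Prkd3-/- libraries between 35273408 and 100441756, so that 3 counts correspond to at most 0.0851 CPM. The targeted gene Prkd3 was at 71.7 ± 2.32 CPM in WT primary MEFs (SD, n = 3) and at 38.8 ± 4.87 CPM in Prkd3-/- primary MEFs (SD, n = 3), so it was lower but still counted under the Prkd3-/- label. The counts of each genotype were deposited as a separate set. Differences between the genotypes in level or spread thus cannot be told apart from differences between the sets. All 8 fibroblast markers were counted in all 13 libraries, with summed levels between 18551 and 67788 CPM and the lowest sum in Prkd3-/- line 13. Col1a1 and Col1a2 had the highest mean levels in every group, so these sums hide single markers. In WT line 3, 5 of the 8 lay below all 3 primary libraries, against 43.1% of all tested genes. Among these were Dcn at 0.519% and Thy1 at 9.77% of the primary mean, while Col1a1, Col1a2 and Vim lay above. In line 13, 6 of the 8 lay below, against 40% of all tested genes, and in the other lines 1 to 4. The summed level of 8 macrophage markers was between 568.5 and 583.1 CPM in WT primary MEFs and between 27.3 and 86.2 CPM in WT immortalized MEFs. In Prkd3-/- primary MEFs this sum was 84.5 CPM for clone 13, 750.7 CPM for clone 14 and 190.5 CPM for clone 15, and in the lines it ranged from 9.79 to 133.4 CPM. In line 13 the markers Adgre1, C1qa, Tyrobp, Ptprc, Fcgr1 and Itgam had 0 counts, in line 15 Fcgr1 had 0 counts, and in the other 11 libraries all 8 had counts. In WT, 6 of the 8 macrophage markers were called lower in the lines by the edgeR test described below, and in Prkd3-/- 0. The sum of 5 endothelial markers was between 10.66 and 15.73 CPM in WT primary MEFs and between 0.371 and 1.98 CPM in the WT lines, with Tek called lower, and in Prkd3-/- it was between 5.66 and 28.7 CPM before and between 1.55 and 17.3 CPM after immortalization, with 0 called. The sum of 5 epithelial markers was between 10.63 and 15.23 CPM in WT primary MEFs and between 0.711 and 37.9 CPM in the WT lines, and between 8.26 and 61.7 CPM and between 2.23 and 130.3 CPM in Prkd3-/-, with 0 called in either genotype. Krt19 made up nearly all of the highest sums, with 129.1 CPM in line 13 and 37.75 CPM in WT line 3. Cdh1 had 0 counts in line 13, and Krt18 was at 1.04% of its primary mean in WT line 3. Of the endothelial and epithelial markers, DESeq2 called Kdr, Tek, Cdh1 and Krt18 lower in WT, where it called 1361 of 33613 genes. In Prkd3-/- it called no marker of the 3 lists. At an unadjusted p under 0.05 edgeR gave 7 macrophage, 2 endothelial and 2 epithelial markers in WT, against 3905 of 19836 tested genes. In Prkd3-/- it gave 2 macrophage markers and 0 endothelial or epithelial ones, against 1331 of 20298 genes. Of the 5 endothelial and 5 epithelial markers, edgeR tested 3 and 3 in WT and 3 and 4 in Prkd3-/-. Of the 10 endothelial and epithelial markers, Tie1 was at 0 counts in 11 of the 13 libraries. The part of other cell types in the results below was not tested. In bulk RNA, fewer cells of a type and less RNA per cell cannot be told apart.

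Per length of transcript, Ccng1 was the most abundant of the 10 genes in WT primary MEFs, with 667.5 ± 14.8 TPM (the share of all counts after division by exon length, SD, n = 3). Cdkn1a followed with 389.9 ± 17.7 TPM, Bax with 242.6 ± 8.47 TPM, Mdm2 with 93.2 ± 3.70 TPM and Trp53 with 83.2 ± 3.05 TPM. Below these came Sesn2 with 76.4 ± 3.28 TPM, Zmat3 with 70.9 ± 0.408 TPM, Bbc3 with 32.9 ± 1.26 TPM, Mdm4 with 9.78 ± 0.956 TPM and Gdf15 with 6.35 ± 0.591 TPM. No neighbours in this order overlapped over the 3 WT primary libraries. In Prkd3-/- primary MEFs the ranges of Mdm2 (82.2 to 154.0 TPM), Trp53 (72.0 to 97.3 TPM) and Sesn2 (84.0 to 93.6 TPM) overlapped. The target genes were thus expressed in the primary cultures of both genotypes, over a wide range of levels.

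The promoter sequences of 9 of the 10 genes are listed in RefSeq for GRCm38.p6, and Zmat3 was not analysed here. In windows from 250 bases before to 50 bases after each annotated start, the p53 half-site consensus of 10 bases was searched without mismatch on both strands, which give the same matches because the consensus is its own reverse complement. It was found in 5 of the 14 windows of the 9 genes (Trp53, Mdm2, Cdkn1a, Ccng1 and Bax), against 8.36% of all 32851 windows. With up to 1 mismatch it was found in 9 of the 14 windows, against 70% of all windows. A pair of half-sites at most 3 bases apart, each with at most 1 mismatch and with its central C and G in place, was found in Cdkn1a and Ccng1 and in 0.922% of all windows. These 2 windows are shown because both genes halt or adjust the cell cycle and both lie far from their primary level in line 13. Capitals mark the half-site matches. A match describes the letters only, and a gene without one may have p53 sites elsewhere.
Cdkn1a (chr17:29090729-29091028, + strand, the upstream of its 2 annotated starts): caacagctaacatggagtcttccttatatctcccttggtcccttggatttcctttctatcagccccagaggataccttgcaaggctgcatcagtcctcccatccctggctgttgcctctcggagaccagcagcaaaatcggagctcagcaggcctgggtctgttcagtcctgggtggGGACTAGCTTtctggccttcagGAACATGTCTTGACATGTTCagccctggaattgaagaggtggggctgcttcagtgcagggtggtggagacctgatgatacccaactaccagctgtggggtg
Ccng1 (chr11:40755237-40755536, - strand): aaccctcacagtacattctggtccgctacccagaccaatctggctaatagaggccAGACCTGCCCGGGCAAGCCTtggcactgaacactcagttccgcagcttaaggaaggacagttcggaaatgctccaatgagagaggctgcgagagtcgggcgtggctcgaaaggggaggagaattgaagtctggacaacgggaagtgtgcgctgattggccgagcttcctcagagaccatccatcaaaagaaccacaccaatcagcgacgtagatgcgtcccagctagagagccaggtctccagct
In Cdkn1a the pair starts 51 bases before the annotated start, with 0 bases between its parts and 1 mismatch in all. In Ccng1 it starts 195 bases before the start, also with 0 bases between its parts and 1 mismatch.

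**Figure D1:**
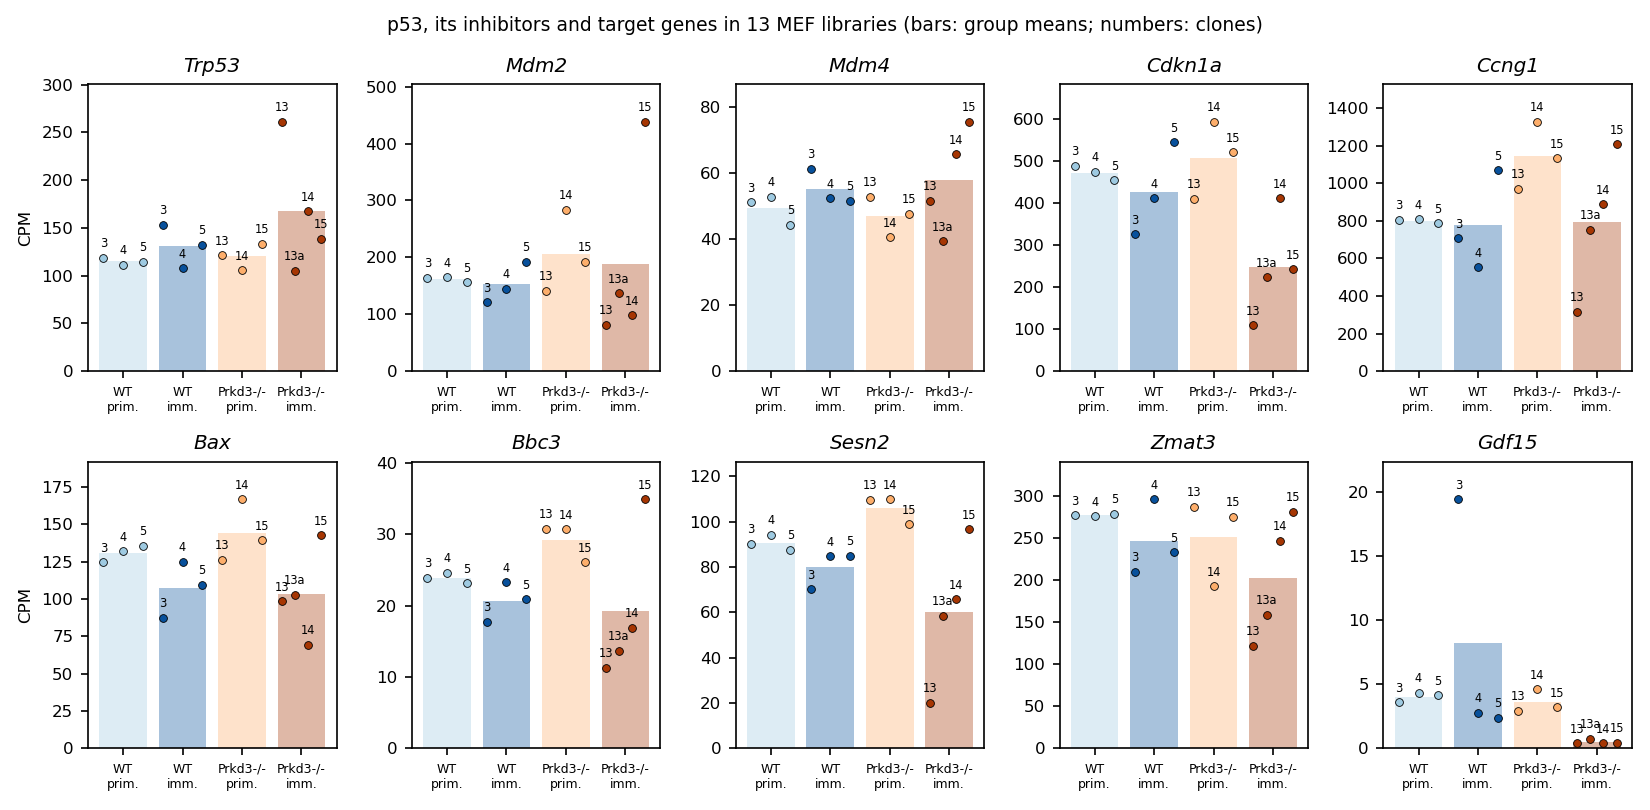
Level of each of the 10 genes (CPM, linear axis from 0) in the 13 libraries. Bars are group means, points are single libraries and the numbers beside them are clones. WT primary MEFs lie close together, while the immortalized lines spread, in Prkd3-/- (4 lines) more widely than in WT (3 lines) for all genes but Gdf15 (highest over lowest line). For Mdm4 the WT lines spread no more than the WT primary cultures. The Prkd3-/- primary cultures also spread more widely than the WT ones for all 10 genes. Among the Prkd3-/- lines, line 13 is highest for Trp53 and lowest for Cdkn1a, Ccng1, Bbc3, Sesn2 and Zmat3, and line 15 is highest for Mdm2.

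Between WT immortalized and primary MEFs none of the 10 genes was called changed, while 1.82% of the 19836 tested genes were (edgeR's quasi-likelihood test, Benjamini-Hochberg adjusted p under 0.01 and |Log2FC| of at least 1). With the clone number as a block that background fell from 361 genes to 0, and the count of called members was 0 as well. No member had an unadjusted p under 0.05 in WT, where 3905 of the 19836 tested genes had one. In Prkd3-/- the same test called 0 of the 10 members and 0% of the 20298 tested genes, of which 1331 had an unadjusted p under 0.05. Among these were Cdkn1a and Gdf15. With DESeq2 190 genes were called in Prkd3-/-, and of the members Gdf15. No member passed the test of a difference between the genotypes in the effect of immortalization (interaction over all 13 libraries). This test called 0% of 21197 genes at an edgeR adjusted p under 0.05, with 841 at an unadjusted p under 0.05. DESeq2 called 37 genes, none of them a member, and gave Gdf15 no adjusted p. The smallest adjusted p that any member reached in these 3 edgeR fits was 0.296, so the values of single lines below are descriptions.

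Trp53 (ENSMUSG00000059552, chromosome 11 of GRCm38 from 69580359 to 69591873) was measured at 118.9, 111.5 and 114.6 CPM in WT primary clones 3, 4 and 5, and at 153.1, 107.6 and 132.4 CPM in the lines of the same numbers. In Prkd3-/- it was at 121.4, 105.5 and 133.5 CPM in primary clones 13, 14 and 15. The lines 13, 13a, 14 and 15 held 260.9, 105.2, 167.6 and 138.5 CPM. Trp53 mRNA was thus retained in all 7 lines, and line 13 held 2.17 times the primary mean. The Log2FC was 0.19 in WT (standard error 0.14, edgeR adjusted p = 0.522) and 0.47 in Prkd3-/- (standard error 0.31, edgeR adjusted p = 0.843), and without line 13 the latter was 0.19. Of the tested genes next to Trp53 in line 13, Wrap53 was at 1.469 and Fxr2 at 1.342 times the primary mean, both above the primary range, and Efnb3 was within it. Atp1b2, Sat2 and Dnah2 lay below, and the median of the 40 nearest tested genes was 0.688 times the primary mean. Counts per gene do not show whether the mRNA carries a mutation.

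Mdm2 (ENSMUSG00000020184, chromosome 10 from 117688875 to 117710758) is both an inhibitor and a target of p53. It was at 164.3, 165.4 and 156.0 CPM in WT primary clones 3, 4 and 5, and at 120.6, 144.7 and 191.8 CPM in the lines. The 3 lines lay on both sides of the narrow primary range. In Prkd3-/- primary clones 13, 14 and 15 Mdm2 was at 141.2, 283.6 and 192.5 CPM. Among these 3, clone 14, with the highest level, also had the highest sum of macrophage markers and the lowest sum of mitotic genes. The lines 13, 13a, 14 and 15 held 81.6, 136.8, 98.2 and 438.1 CPM. Lines 13, 13a and 14 lay below all 3 primary libraries and line 15 above them, at 2.13 times the primary mean. The Log2FC was −0.09 in WT (standard error 0.18, edgeR adjusted p = 0.835) and −0.14 in Prkd3-/- (standard error 0.62, edgeR adjusted p = 0.975). Its sign in Prkd3-/- rests on single libraries: without line 15 it was −0.97 and without primary clone 14 it was 0.17. In line 15 the tested genes next to Mdm2 were raised less or were lower, with Cpsf6 at 1.37, Slc35e3 at 1.24 and Nup107 at 1.498 times the primary mean, Rap1b within the primary range at 1.13 times, Cpm at 2.02% and Lyz1 at 0.483% of it. The median of the 40 nearest tested genes was 1.27 times the primary mean.

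Mdm4 (ENSMUSG00000054387, chromosome 1 from 132959484 to 133030561) was at 51.1, 52.8 and 44.4 CPM in WT primary clones 3, 4 and 5, and at 61.3, 52.4 and 51.6 CPM in the lines. The Prkd3-/- cultures 13, 14 and 15 held 52.9, 40.5 and 47.7 CPM while primary, and lines 13, 13a, 14 and 15 held 51.7, 39.3, 65.7 and 75.5 CPM. Line 15 was the highest of all 13 libraries for Mdm4 as for Mdm2. The log2 ratio of Mdm4 to the primary mean was 0.68 in line 15. The median there was 0.27 for the 40 nearest tested genes and 0.47 for the 20 nearest. With a Log2FC of 0.16 in WT (standard error 0.11, edgeR adjusted p = 0.507) and 0.29 in Prkd3-/- (standard error 0.25, edgeR adjusted p = 0.862), the groups overlapped in both genotypes.

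Cdkn1a (ENSMUSG00000023067, chromosome 17 from 29090976 to 29100727) encodes p21, the inhibitor of cyclin-dependent kinases through which p53 stops the cell cycle. WT primary clones 3, 4 and 5 held 489.3, 475.4 and 455.0 CPM, and the lines 325.9, 412.2 and 545.3 CPM. Lines 3 and 4 lay below the primary libraries and line 5 above them. Prkd3-/- primary clones 13, 14 and 15 held 411.4, 594.2 and 521.3 CPM, and lines 13, 13a, 14 and 15 held 109.8, 223.4, 411.9 and 243.4 CPM. Line 14 reached the lowest primary library, while line 13 was at 21.6%, line 13a at 43.9% and line 15 at 47.8% of the primary mean. The mean fell from 509.0 ± 92.0 CPM (SD, n = 3) to 247.1 ± 124.6 CPM (SD, n = 4), and this difference did not pass the test (Log2FC −1.05, standard error 0.42, unadjusted p = 0.0378, edgeR adjusted p = 0.73). The difference between the genotypes was −0.90 on the log2 scale (standard error 0.51, edgeR unadjusted p = 0.104, adjusted p = 1). Of the exon bases of Cdkn1a, 7.68% also belong to the antisense gene AC167363.2, and the WT counting ignored strand and counted a read pair for every gene it overlaps, so a part of these counts cannot be assigned to one gene.

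Ccng1 (ENSMUSG00000020326, chromosome 11 from 40748552 to 40755311) encodes cyclin G1, which takes part in the feedback on p53 through Mdm2. It was at 806.3, 808.2 and 788.3 CPM in WT primary clones 3, 4 and 5, and at 708.9, 554.7 and 1071 CPM in the lines. As for Cdkn1a, lines 3 and 4 lay below and line 5 above the primary range. Prkd3-/- primary clones 13, 14 and 15 held 972.9, 1328 and 1133 CPM and lines 13, 13a, 14 and 15 held 317.4, 753.9, 887.8 and 1210 CPM. Line 13 was at 27.7% of the primary mean, and line 15 was within the primary range. The Log2FC was −0.04 in WT (standard error 0.26, edgeR adjusted p = 0.95) and −0.54 in Prkd3-/- (standard error 0.42, edgeR adjusted p = 0.853).

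**Figure D2:**
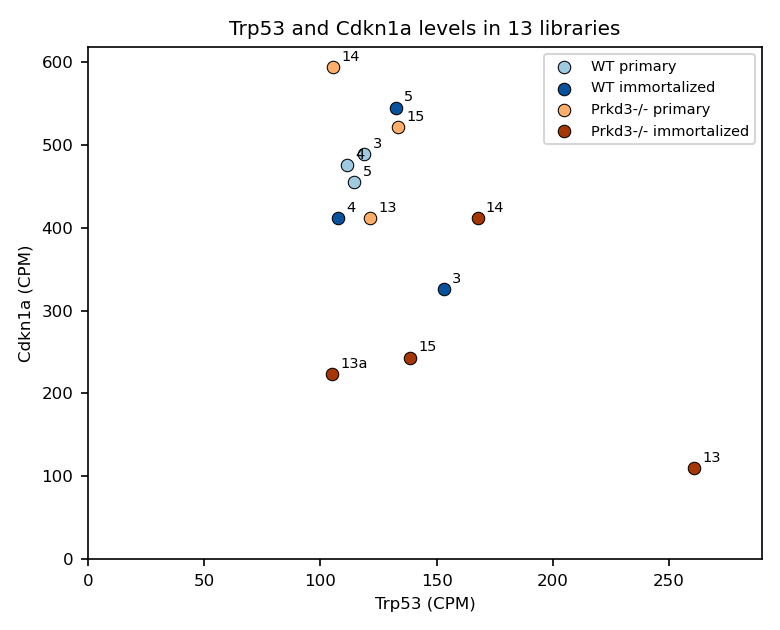
Trp53 level (x axis, CPM) against Cdkn1a level (y axis, CPM) in the 13 libraries, colored by group and labelled by clone. Line 13 of Prkd3-/- lies alone at 260.9 CPM of Trp53 and 109.8 CPM of Cdkn1a, while the 6 primary libraries lie between 105.5 and 133.5 CPM of Trp53 and between 411.4 and 594.2 CPM of Cdkn1a.

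Bax (ENSMUSG00000003873, chromosome 7 from 45461697 to 45466898), which opens the outer mitochondrial membrane in apoptosis, was at 124.6, 131.8 and 135.7 CPM in WT primary clones 3, 4 and 5 and at 87.3, 125.0 and 109.5 CPM in the lines. For Prkd3-/- the primary clones 13, 14 and 15 held 126.3, 166.8 and 139.2 CPM and lines 13, 13a, 14 and 15 held 98.5, 102.8, 69.5 and 142.6 CPM. In line 14, Bax was at 48.2% of the primary mean, and the 40 nearest tested genes had a median of 0.617 times theirs. The lowest level of Bax was thus in line 14, not in line 13, and the annotation places Gm45808, on the same strand, over 12.2% of its exon sequence. The Log2FC was −0.29 in WT (standard error 0.15, edgeR adjusted p = 0.353) and −0.49 in Prkd3-/- (standard error 0.26, edgeR adjusted p = 0.805).

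Bbc3 (ENSMUSG00000002083, chromosome 7 from 16308393 to 16318205) encodes PUMA, which frees Bax from its inhibitors. WT primary clones 3, 4 and 5 held 23.9, 24.6 and 23.1 CPM and the lines 17.8, 23.3 and 20.9 CPM. Prkd3-/- primary clones 13, 14 and 15 held 30.8, 30.7 and 26.1 CPM, against 11.3, 13.7, 16.9 and 34.9 CPM in lines 13, 13a, 14 and 15. Lines 13, 13a and 14 thus lay below the primary range and line 15 above it. The Log2FC was −0.21 in WT (standard error 0.12, edgeR adjusted p = 0.412) and −0.62 in Prkd3-/- (standard error 0.39, edgeR adjusted p = 0.843).

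Sesn2 (ENSMUSG00000028893, chromosome 4 from 132492032 to 132510501) encodes a stress-induced protein that restrains mTORC1 and is switched on both by p53 and by ATF4. In WT primary clones 3, 4 and 5 it was at 90.3, 94.4 and 87.6 CPM and in the lines at 70.3, 84.7 and 85.1 CPM. Prkd3-/- primary clones 13, 14 and 15 held 109.8, 110.0 and 98.9 CPM, and lines 13, 13a, 14 and 15 held 20.1, 58.5, 65.8 and 96.6 CPM. Sesn2 was the single member whose level was below that of each primary library in all 3 WT lines and all 4 Prkd3-/- lines. In WT this was so for 17.4% of the tested genes, and 1 of the 10 members, and every line lay above for 13.9% of genes and 0 members. In Prkd3-/- every line lay below for 5.26% of genes and 2 of the 10 members (Sesn2 and Gdf15), and above for 4.19% of genes and 0 members. The gaps were small in WT and in line 15, and large in line 13, at 18.9% of the primary mean. The Log2FC was −0.18 in WT (standard error 0.10, edgeR adjusted p = 0.403) and −0.82 in Prkd3-/- (standard error 0.45, edgeR adjusted p = 0.82). Without line 13 the latter was −0.53. The 40 nearest tested genes also had medians under their primary mean in all 7 lines, between 0.544 times in line 14 and 0.864 times in line 13a.

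Zmat3 (ENSMUSG00000027663, chromosome 3 from 32334792 to 32366014), an RNA-binding protein of the p53 response, was at 276.8, 275.8 and 278.6 CPM in WT primary clones 3, 4 and 5 and at 209.9, 296.2 and 233.0 CPM in the lines. Among Prkd3-/- libraries, primary clones 13, 14 and 15 held 286.9, 192.4 and 275.4 CPM and lines 13, 13a, 14 and 15 held 121.8, 158.9, 247.0 and 281.0 CPM. Here lines 14 and 15 remained within the primary range, and lines 13 and 13a lay below it. The Log2FC was −0.17 in WT (standard error 0.15, edgeR adjusted p = 0.586) and −0.32 in Prkd3-/- (standard error 0.33, edgeR adjusted p = 0.877).

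Gdf15 (ENSMUSG00000038508, chromosome 8 from 70629393 to 70632456) encodes a secreted stress hormone that responds to p53 and to ATF4. It was at 3.59, 4.34 and 4.13 CPM in WT primary clones 3, 4 and 5, and at 19.5, 2.79 and 2.38 CPM in the lines. Line 3 stood far above and lines 4 and 5 lay below the primary libraries. The WT Log2FC of 1.03 (standard error 0.85, edgeR adjusted p = 0.562) turned to −0.63 without line 3. In Prkd3-/- primary clones 13, 14 and 15 Gdf15 was at 2.94, 4.60 and 3.23 CPM. All 4 lines were far lower, with 0.401, 0.740, 0.391 and 0.432 CPM in lines 13, 13a, 14 and 15, which rest on 21, 54, 25 and 32 counts. The Log2FC was −2.88 in Prkd3-/- (standard error 0.39, lower in 4 of 4 lines, edgeR unadjusted p = 0.000111). The edgeR adjusted p was 0.296, with a range from 0.127 to 0.944 over the other edgeR fits, limma and the left-out libraries, while DESeq2 gave an adjusted p of 9.2e-10. The difference between the genotypes was −3.89 (standard error 0.93, edgeR unadjusted p = 0.00141, adjusted p = 1), and without WT line 3 it was −2.25.

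**Figure D3:**
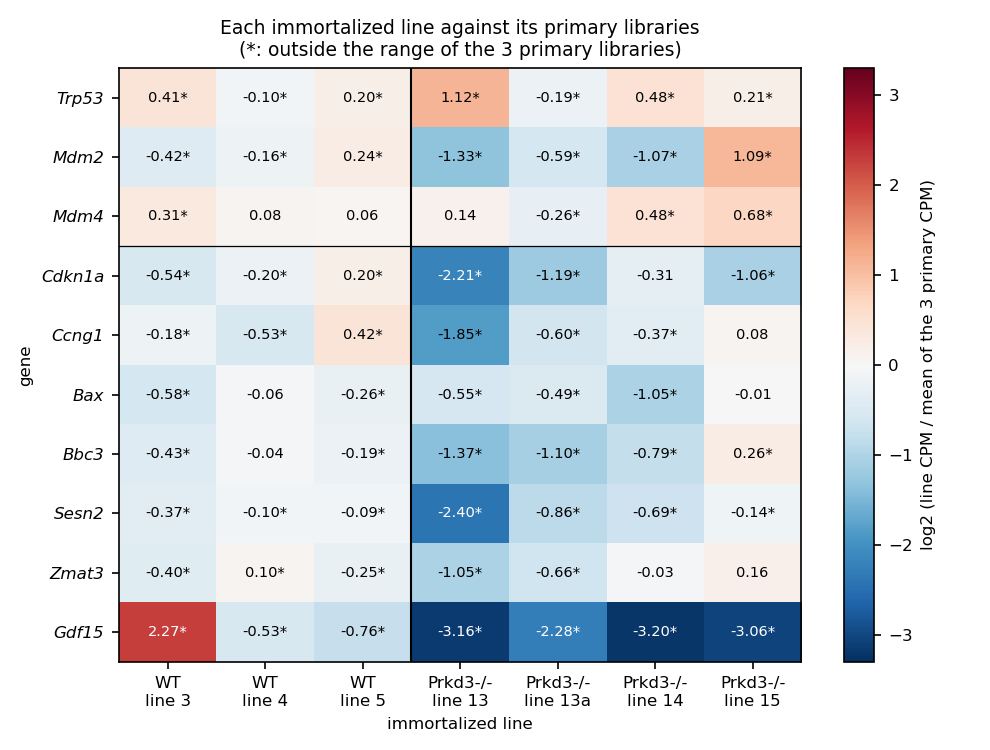
Log2 ratio of each immortalized line (columns) to the mean of the 3 primary libraries of its genotype for the 10 genes (rows), with the value in each cell. An asterisk marks a value outside the range of the 3 primary libraries. The deepest blue cells are those of Gdf15 in the 4 Prkd3-/- lines and of Sesn2 and Cdkn1a in line 13, and line 15 is near white or red for most genes apart from Cdkn1a and Gdf15.

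Taking Mdm2 with the 7 other target genes, the 7 lines fell into different positions against their primary libraries. The WT primary libraries were so alike that few genes of any kind lay within their range, so each count is given with the share of all tested genes. In WT line 3, 7 of the 8 target genes lay below and 1 (Gdf15) above the primary range, against 43.1% of all genes below and 41% above, with a median log2 ratio of −0.41. For WT line 4, 5 lay below, 2 within and 1 above, against 42.7% of all genes below and 40.3% above, and the median was −0.13. With scaling by library size alone all 8 lay below in line 4, with a median of −0.302. In WT line 5, 5 lay below and 3 above (Mdm2, Cdkn1a and Ccng1), against 42.5% and 41% of all genes, with a median of −0.14. The median over all tested genes was −0.016, −0.018 and −0.0083 in these 3 lines, and between −0.052 and −0.0035 in the 4 Prkd3-/- lines. In lines 4 and 5 the log2 ratios of the 8 genes lay between −0.53 and 0.42, apart from Gdf15 in line 5 at −0.76.

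In Prkd3-/- line 13 all 8 target genes lay below the primary range, against 40% of all genes below and 38.1% above, and the median log2 ratio was −1.61. All 8 lay below in line 13a as well, against 28.7% of all genes below and 29% above, with a median of −0.76. For line 14, 6 lay below and 2 within, against 36.5% of all genes below and 35.1% above, and the median was −0.74. Line 15 had 3 below (Cdkn1a, Sesn2 and Gdf15), 3 within and 2 above (Mdm2 and Bbc3), against 33.8% of all genes below and 35.4% above, and its median was 0.03. Primary clone 14, with the highest macrophage marker sum, is part of this reference. Its sum of mitotic genes was 333.7 CPM, against 844 and 734 CPM in clones 13 and 15. Its sum of the 8 target genes was 2710 CPM, against 2082 and 2390 CPM. What sets clone 14 apart was not tested. Without clone 14 the counts below were 8, 8, 7 and 3 for lines 13, 13a, 14 and 15. The shares of all genes below were then 45.7%, 40.5%, 44.3% and 41.6%. By the median ratio of these 8 genes, Prkd3-/- line 15 and WT lines 4 and 5 were nearest to their primary level and line 13 was the farthest from it. WT lines 3 and 5 and lines 13 and 13a had none of the 8 within the primary range, and the WT medians all exceeded the SD of the medians of the WT primary libraries (0.0287). A test of single lines was not possible with 1 library each.

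**Figure D4:**
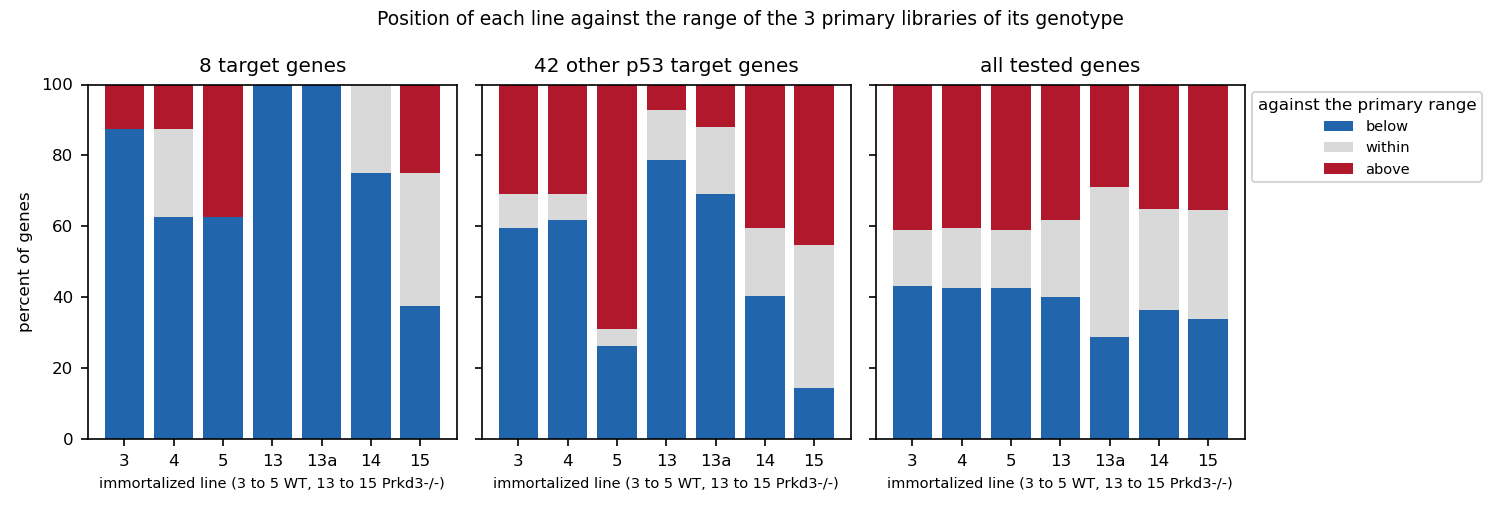
Share of genes (percent, stacked) that lay below, within or above the range of the 3 primary libraries of the same genotype, for each immortalized line, among the 8 target genes, 42 other p53 target genes and all tested genes. In lines 13 and 13a all 8 target genes lie below, and of the other target genes 33 and 29 of 42 do.

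The 42 other p53 target genes were taken from general knowledge of the pathway, with earlier results of these data already known. In WT 1 of them was called lower and 0 higher, and their median Log2FC was 0.02 beside 0.04 for all tested genes. The one called was Perp, a desmosomal target gene that takes part in cell death. It was at 26.1, 25.8 and 21.3 CPM in primary clones 3, 4 and 5 and at 10.5, 8.70 and 11.2 CPM in the lines (Log2FC −1.27, standard error 0.15, edgeR adjusted p = 0.00803), and all 3 lines lay below all primary libraries. This call was lost with the clone number as a replicate block (edgeR adjusted p = 0.0814), with all 13 libraries in one fit (0.53), with at least 10 counts asked of every library (0.0109), in limma (0.0517) and with any 1 library left out except WT line 5 (0.0136 to 0.0599), while DESeq2 gave an adjusted p of 9.77e-11. Gadd45a, a growth arrest and DNA repair gene, had an edgeR adjusted p of 0.0471 (0.159 with the block) with a Log2FC of 1.43, and went from 12.1, 11.6 and 11.5 CPM to 19.9, 42.9 and 32.3 CPM. In Prkd3-/- 0 of the 42 were called by edgeR or DESeq2, and 0 by edgeR and 1 by DESeq2 had an unadjusted p under 0.05. The median Log2FC there was −0.16, beside 0.07 for all tested genes.

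Line by line, the other target genes gave these counts. In line 13, 33 of the 42 lay below the primary range and 3 above, against 40% and 38.1% of all genes, with a median log2 ratio of −0.91. In line 13a it was 29 below and 5 above, against 28.7% and 29% of all genes, with a median of −0.54. Line 14 was even, with 17 below and 17 above, against 36.5% and 35.1% of all genes, and a median of 0.12. Line 15 had 6 below and 19 above, against 33.8% and 35.4% of all genes, with a median of 0.10. WT lines 3 and 4 had 25 and 26 of the 42 below and 13 each above, with medians of −0.16 and −0.33. Of all genes, 43.1% and 42.7% lay below in these lines and 41% and 40.3% above. WT line 5 had 11 below and 29 above, against 42.5% and 41% of all genes, with a median of 0.25. The order of the lines thus differed from that by the 8 target genes. By the medians of the 42 genes, line 14 was nearer to its primary level than WT line 4. In line 13 the p53-induced genes Trp53inp1 and Trp53cor1 and Perp, chosen after their values were seen, were at 7.003%, 9.502% and 8.736% of the primary mean. Trp53cor1 was at only 0.191 CPM there, against a primary mean of 2.01 CPM. Of its exon bases, 44.1% also belong to other genes.

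The 25 other p53 regulators include kinases of the DNA damage response, such as Atm and Chek2, and coactivators, such as Ep300. None was called in either genotype by edgeR, which tested 24 of them, or by DESeq2, which tested all 25. In WT 3 had an edgeR unadjusted p under 0.05, against 3905 of all 19836 tested genes. By DESeq2 it was 5, against 4866 of 33613 genes. In Prkd3-/- it was 0 by both. Cdkn2a, which encodes p16Ink4a and p19Arf in overlapping reading frames that counts per gene do not separate, differed most between lines. WT primary clones 3, 4 and 5 held 61.5, 60.3 and 58.2 CPM and the lines 78.4, 61.0 and 214.4 CPM. The Prkd3-/- primary clones 13, 14 and 15 held 64.0, 85.9 and 68.2 CPM and lines 13, 13a, 14 and 15 held 0.229, 186.8, 69.2 and 85.3 CPM. Line 13 had 12 counts of Cdkn2a, 0.315% of the primary mean, and 7 counts of its neighbour Cdkn2b, which encodes the related inhibitor p15. On the other side Mtap was at 1.97 times its primary mean in the same line. Lines 13 and 13a, which share a clone number, thus held 0.229 and 186.8 CPM of Cdkn2a. Both had all 8 target genes below the primary range, against 40% and 28.7% of all genes. Their median log2 ratios of the 8 genes were −1.61 and −0.76. A link between Cdkn2a and the target gene level was not tested.

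Because Sesn2, Gdf15 and Bbc3 also respond to ATF4, the activator of the amino acid and endoplasmic reticulum stress response, 10 ATF4 response genes (Sesn2 among them) were compared. In WT their median Log2FC was 0.84, and 7 had an edgeR unadjusted p under 0.05, against 3905 of all 19836 tested genes. Of the 10, 0 were called by edgeR. DESeq2, which called 1361 of 33613 genes, called Asns, the asparagine synthetase gene, higher. Of the members that respond to ATF4, Sesn2 and Bbc3 had a WT Log2FC of −0.18 and −0.21 and Gdf15 of 1.03, none of them called. In Prkd3-/- the median of the 10 genes was 0.15 with 0 called and 0 at an unadjusted p under 0.05. By line, 2 of the 10 lay below the primary range in each WT line and 8, 8 and 7 above in lines 3, 4 and 5. In line 13 it was 5 below and 2 above, in line 13a 1 and 3, in line 14 8 and 1, and in line 15 2 and 4, beside the shares of all genes given above. The lines of Prkd3-/- thus differed among themselves in these genes as well.

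Mitotic genes are known to fall when p21 arrests the cycle, and 8 of them were compared line by line with the level of Cdkn1a. Their median log2 ratio to the primary mean was 0.06, −0.33 and −1.45 in WT lines 3, 4 and 5, where Cdkn1a was at 68.9%, 87.1% and 115.2% of its primary mean. In lines 13, 13a, 14 and 15 the median was 1.54, −0.81, −0.10 and 0.39, and Cdkn1a was at 21.6%, 43.9%, 80.9% and 47.8%. All 8 mitotic genes lay above the primary range in line 13, against 38.1% of all genes. In WT line 5 all 8 lay below it, against 42.5% of all genes. These were the lines with the lowest and the highest Cdkn1a. In lines 13a and 14 and WT line 4 both Cdkn1a and the median of the mitotic genes were under the primary mean, so the lines did not follow a single order. In line 14 all 8 mitotic genes lay within the primary range. A link between Cdkn1a and the mitotic genes was not tested.

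Over the 13 libraries, the genes whose deviation from the primary mean of their genotype was most like that of Cdkn1a were AC167363.2 (Pearson r = 0.988), Gm14117, Selenom, Snap47 and Aamdc (r = 0.931), of 19311 genes compared. The first shares exon bases with Cdkn1a. Of the members, Sesn2 (r = 0.875) and Ccng1 (r = 0.844) were most like it and Mdm4 (r = −0.24) and Trp53 (r = −0.659) least. For Trp53 the closest were Trp53-ps (r = 0.968), a pseudogene that can take up reads of Trp53, then Galnt1, Nuak1, Cdc23 and Socs7 (r = 0.935). All target members had a negative r with Trp53, from −0.806 for Sesn2 to −0.386 for Gdf15. These values describe 13 libraries that share the primary references, and line 13 is far from the others in both genes.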

How the data were processed

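RNA-seq of 13 MEF libraries was analysed. The authors mapped read pairs with STAR 2.7.10a and counted them with featureCounts of Subread 2.0.6 on Ensembl 102 genes (GRCm38), and deposited raw counts per gene in a table for each genotype. The WT table was counted without strand and with every overlapping gene credited; the options behind the Prkd3-/- table are not given in the sources used here. Symbols came from GENCODE M21. Each genotype was fitted with edgeR 4.0.16 (TMM, filterByExpr, robust quasi-likelihood test) in R 4.3.3, and both for the interaction. DESeq2 1.42.0 and limma 3.58.1 were alternatives, as were other scalings and filters, left-out libraries, summed lines 13 and 13a, and the clone number as a block. The clone numbers, which the article ties to embryos for WT, pair primary and immortalized libraries; their deviations correlated by between −0.283 and 0.142. Lines were compared with the mean and range of the primary libraries of their genotype, without a test. The fits were tested on simulated data. Members and lists were chosen with earlier results of these data known. All members, and of the other p53 regulators, other p53 targets and ATF4 genes the 4 with the smallest p in each direction at an adjusted p under 0.05, are named.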

Additional observations from a re-analysis of the deposited data

Results flagged for a closer look

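In the 4 Prkd3-/- immortalized lines, 2 values stood apart from the other 3 by more than Dixon's 95% limit for a group of 4, which chance exceeds in about 1 group in 20. Mdm2 in line 15, at 438.1 CPM, was separated from the next line by 0.845 of the whole range. Gdf15 in line 13a, at 0.740 CPM, was separated by 0.883 of the range, although all 4 lines lay below all primary libraries.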

How the results depend on the processing

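No member was called in WT or in the interaction under any alternative, the clone number as a replicate block included (0 called), and in Prkd3-/- DESeq2 alone called 1 (Gdf15). DESeq2 called 3 of the other p53 target genes in WT (Gadd45a, Plk2 and Perp). It also called 1 ATF4 response gene, against 1361 of all 33613 genes in that fit. An adjusted p under 0.05 in edgeR gave 2 target genes, against 868 of 19836 genes. The 1 target gene called in WT (Perp) became 0 with the replicate block, with all 13 libraries in one fit, in limma and with at least 10 counts in every library. With single libraries left out, the counts called in WT were 0 to 3 target genes, 0 to 1 other regulator and 0 to 2 ATF4 response genes. Scaling by library size alone moved the median WT Log2FC of all genes from 0.04 to −0.10 and the median ratio of the 8 target genes to −0.587, −0.302 and −0.207 in WT lines 3, 4 and 5, with 8 below the primary range in line 4. Against the primary library of the same clone the medians of lines 4 and 5 were −0.174 and −0.095. In the 4 Prkd3-/- lines the median ratio moved by less than the SD over the primary libraries (0.217) under every setting run. With single libraries left out, the sign of some Log2FC values turned: in WT Mdm2 (−0.286 to 0.059), Cdkn1a (−0.357 to 0.021), Ccng1 (−0.341 to 0.155) and Gdf15 (−0.634 to 1.468), in Prkd3-/- Mdm2 (−0.972 to 0.168), and in the interaction Mdm2 (−0.876 to 0.262), Mdm4 (−0.006 to 0.295) and Zmat3 (−0.347 to 0.034). With lines 13 and 13a summed, Mdm2 was 0.047 in Prkd3-/- and 0.156 in the interaction, and the latter was 0.061 by library size alone. The cause of these shifts was not tested. The paired half-sites, the adjacent genes, the reference without primary clone 14 and the settings other than DESeq2 and 0.05 for the wider lists were chosen after seeing the data. Depth limits Gdf15 most, with 21 to 54 counts in the Prkd3-/- lines.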
